A study of Mus musculus with 9 samples.

Results

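Gene expression of 40 genes, called members below, was followed: 23 genes of the reprogramming factors and the pluripotency network, and 17 genes of epithelial cells that somatic cells switch on early in reprogramming. A member is a gene whose symbol was the only one given to a probe set in the array annotation, and a gene with several such probe sets was represented by the one with the highest mean over the 9 arrays. All 40 members were found, among 22180 genes with a single-gene probe set. Of these, 36 had 1 such probe set and 4 (Sall4, Cdh1, Krt18 and Lsr) had 2.

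The RNA came from MLL-AF9-OSKM cells, a mouse acute myeloid leukemia with the human MLL-AF9 fusion gene, which carries a GFP tag, and with Klf4, c-Myc, Oct4 and Sox2 (OSKM) behind the doxycycline-dependent tetO promoter. The cells were grown in irradiated C57BL/6J recipient mice, sorted from the spleen by FACS and hybridised to Affymetrix Mouse Gene 2.0 ST arrays, with 3 arrays each for mice without doxycycline (Dox; control) and for mice given Dox for 48 h or 72 h. Every group, control included, carried both the fusion gene and the OSKM cassette. No mice without the cassette were given the drug, so what Dox does by itself and what OSKM do cannot be told apart. The labels call the replicates biological without saying whether each had its own mouse, so the p-values reflect only how far these samples varied, which may be technical, and the age of the mice is not given in the sources used here. The arrays read bulk RNA of whatever leukemia cells were left at sorting, so less RNA of a gene per cell and fewer cells that express it cannot be told apart.

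Pluripotent cells are held in their state by a small circuit of transcription factors around Oct4, Sox2 and Nanog, which bind their own and each other's genes. When OSKM are forced on in fibroblasts, mesenchymal genes go down and epithelial genes, such as those of E-cadherin and the claudins, come up within days, whereas the endogenous pluripotency genes follow late and in few cells. Neither program is typical of blood cells.

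None of the 40 members passed the threshold (adjusted p under 0.05, limma) in any comparison. This was 0 of 40 after 48 h, where 1.6% of all 41345 probe sets passed, 0 of 40 after 72 h, where 2.49% passed, and 0 of 40 between 72 h and 48 h, where 0.215% passed. The moderated F test over the 3 groups called 0 of 40 members and 2.24% of all probe sets. These shares are small, so a count of 0 in 40 is close to the background. Lowest adjusted p-values were 0.522 at 48 h (Pou5f1), 0.185 at 72 h (Utf1), 0.289 between the time points (Utf1) and 0.23 in the F test. Unadjusted p-values under 0.05 were found for 0, 2 and 3 members in the 3 comparisons, beside 10.2%, 16.8% and 12.3% of all probe sets.

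The intervals show how large a difference in signal could have gone unseen. The 95% interval of the difference lay within 1 log2 unit of 0, which is a 2-fold change either way, for 40 of 40 members at 48 h, 39 of 40 at 72 h and 40 of 40 between the time points. Over all probe sets it did so for 91.1%, 88.2% and 89.9%, so the members were close to the background. The bound applies to signal, not to amounts of RNA. The exception was Gdf3 at 72 h, whose interval reached 1.01. The interval reached a median of 0.26 to either side of the estimate over the members, the same as over all probe sets, so smaller changes were not resolved with 3 arrays per group. Estimated log2 fold changes ran from -0.46 to 0.36 at 48 h, from -0.27 to 0.30 at 72 h and from -0.32 to 0.47 between the time points, with medians of -0.02, -0.01 and 0.01, against -0.02, -0.01 and 0 over all probe sets.

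**Figure D1:**
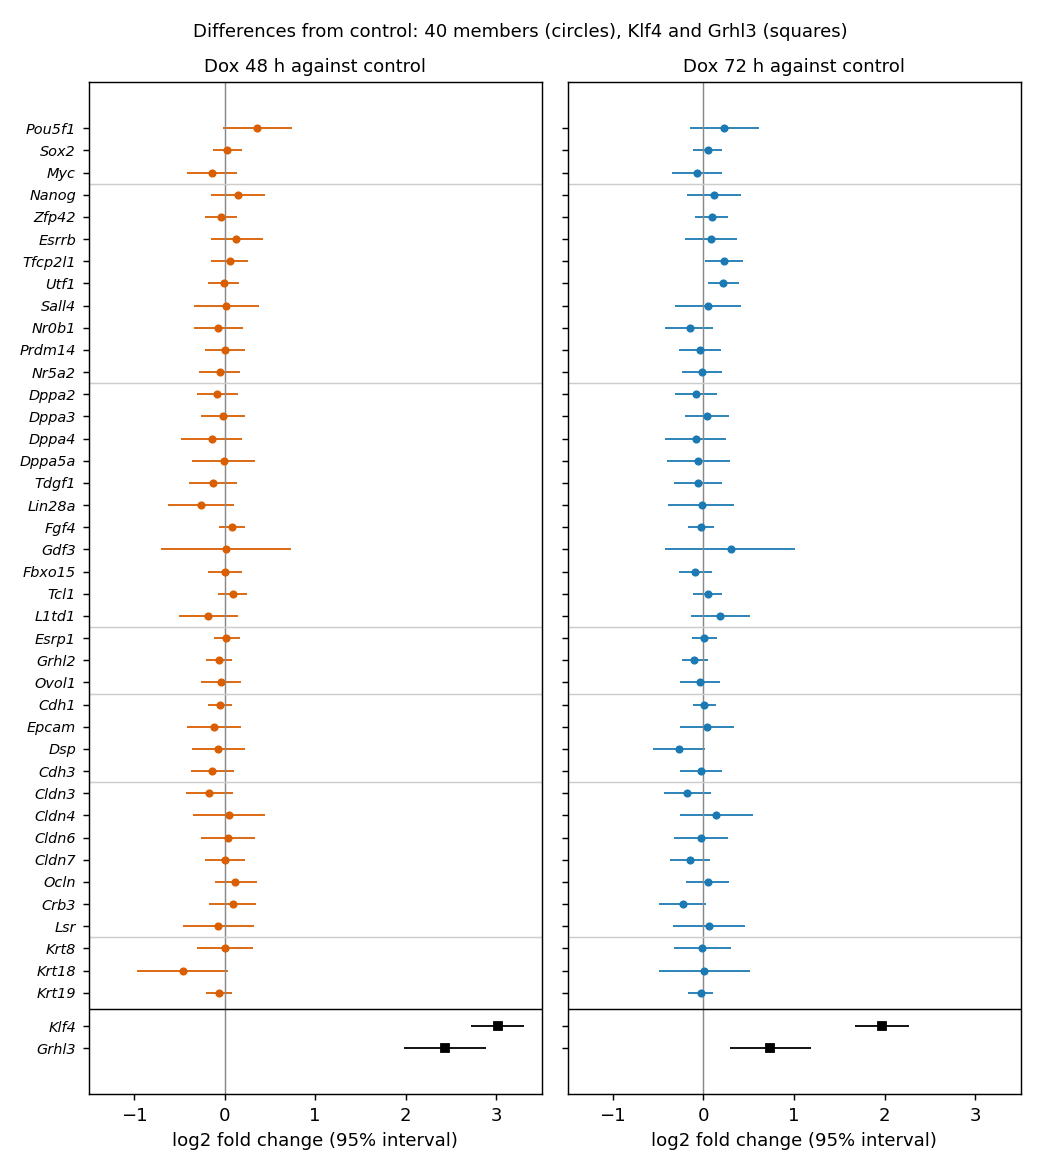
Log2 fold change against control (x axis) with its 95% interval from limma for each of the 40 members (circles, in the order of their roles), at 48 h of Dox (left) and 72 h of Dox (right), with Klf4 and Grhl3, which are no members, as squares for scale. The members lie between -0.46 and 0.36 at 48 h, where Klf4 stands at 3.02 and Grhl3 at 2.43.

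Signals of different probe sets do not measure amounts of RNA on 1 scale, but where a probe set lies in the range of its array bears on how much a change can show. The mean of 27 of the 40 members was below the median of all probe sets, and that of 7 was in the lowest 25%. Myc and Dsp were the 2 members in the highest 10%. Background correction as in RMA compresses differences of dim probe sets, and no detection call was used, so a low signal was not read as absence of the transcript. In 27 of 40 members (67.5%) the same value stood on at least 2 arrays, against 45.9% of all probe sets.

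**Figure D2:**
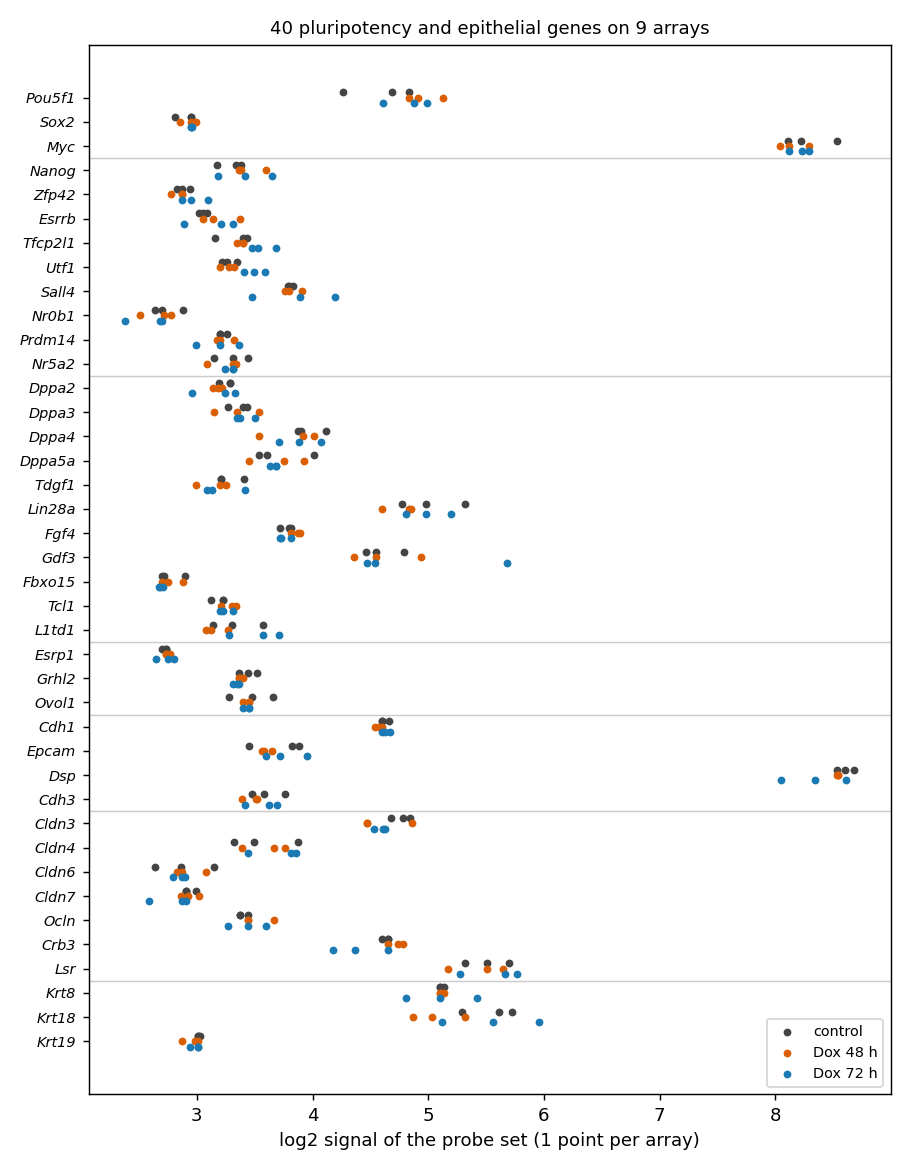
Log2 signal (x axis) of the 40 members on each of the 9 arrays (1 point per array; control grey, Dox 48 h orange, Dox 72 h blue), in the order of their roles, with lines between roles. Within a row the 3 colours overlap for most members, and Utf1 and Tfcp2l1 have all 3 of their 72 h points above the other 6; positions of different genes on the axis are not amounts of RNA that can be compared.

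Among the reprogramming factors, 3 are members: Pou5f1 (the gene of Oct4), Sox2 and Myc. Pou5f1 had log2 signals of 4.83, 4.26 and 4.69 in control, 4.91, 5.13 and 4.83 at 48 h, and 4.88, 4.99 and 4.61 at 72 h. Control 2 was the lowest array, and the groups overlapped. The log2 fold change was 0.36 ± 0.16 at 48 h (SE; 95% interval -0.02 to 0.74, adjusted p = 0.522), the highest of the 40, and 0.23 ± 0.16 at 72 h (-0.15 to 0.61, adjusted p = 0.532). With 1 array left out in turn, the estimates ran from 0.19 to 0.48 at 48 h and from 0.06 to 0.35 at 72 h. Sox2, the partner of Oct4 on joint DNA elements, gave 2.95, 2.95 and 2.81 in control, 2.95, 2.99 and 2.85 at 48 h, and 2.95, 2.95 and 2.96 at 72 h. The groups overlapped, with intervals of -0.13 to 0.19 at 48 h and -0.11 to 0.21 at 72 h. Myc, which drives growth and metabolism, gave 8.11, 8.22 and 8.53 in control, 8.29, 8.12 and 8.04 at 48 h, and 8.12, 8.29 and 8.23 at 72 h. Its highest array was control 3, and its intervals were -0.41 to 0.14 at 48 h and -0.35 to 0.21 at 72 h.

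Klf4, the fourth factor of the cassette and no member, set the scale. It gave 4.73, 5.13 and 4.63 in control, 7.92, 7.88 and 7.74 at 48 h, and 6.80, 6.89 and 6.71 at 72 h, with no overlap between any of the groups. Its log2 fold changes were 3.02 (95% interval 2.72 to 3.31, adjusted p = 3.1e-05) and 1.97 (1.67 to 2.27, adjusted p = 0.000827). The intervals of Pou5f1, Sox2 and Myc at both times end below the lower ends of these. The positions of the probes within the transcripts were not used here, so RNA of the cassette and RNA of the endogenous genes cannot be told apart. The values of Pou5f1, Sox2 and Myc do not show that the cassette was not induced. The study reports a gradual rise of OSKM expression in MLL-AF9-OSKM cells under Dox, measured by qRT-PCR and not on these arrays.

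The DNA before the start sites of the members was read for short motifs that the cassette's factors are known to prefer: the octamer ATGCAAAT for Oct4, the cores ACAATG and ACAAAG for Sox factors, the core CCACCC for KLF factors and the E-box CACGTG for Myc. Windows ran from 250 bases before to 50 bases after each start in RefSeq (GRCm38.p6), both strands were searched, matches could overlap, and 25 of the 40 members had a window, with 32 starts in all. CCACCC stood in 20 of these 32 windows (62.5%) and in 31.5% of all 32851 windows. The other motifs stood in 1 (3.12%, against 1.74% of all windows), 5 (15.6%, against 12.6%), 5 (15.6%, against 18.7%) and 2 (6.25%, against 7.15%) of the member windows, in the order given above. Windows were not matched for base composition, and a match is a run of letters, not a bound site. The sequences of 3 genes are shown: Pou5f1, the member with the highest estimate at 48 h, Cldn3, the member window with the most CCACCC matches, and Grhl3, an epithelial gene outside the members that rose. Each is the 250 bases before the start, at chr17:35505782-35506031 on the plus strand (the first of 2 starts listed for Pou5f1), chr5:134985964-134986213 on the plus strand and chr4:135573633-135573882 on the minus strand, with CCACCC or its reverse complement GGGTGG in capitals.
Pou5f1: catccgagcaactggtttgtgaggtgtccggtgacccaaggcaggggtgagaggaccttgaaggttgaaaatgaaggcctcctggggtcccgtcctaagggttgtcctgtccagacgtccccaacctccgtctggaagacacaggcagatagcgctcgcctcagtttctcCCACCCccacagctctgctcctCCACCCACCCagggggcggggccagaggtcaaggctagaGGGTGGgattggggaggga
Cldn3: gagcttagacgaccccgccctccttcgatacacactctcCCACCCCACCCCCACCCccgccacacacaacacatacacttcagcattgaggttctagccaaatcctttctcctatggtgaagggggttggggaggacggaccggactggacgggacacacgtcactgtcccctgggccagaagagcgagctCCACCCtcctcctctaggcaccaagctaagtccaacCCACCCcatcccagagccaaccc
Grhl3: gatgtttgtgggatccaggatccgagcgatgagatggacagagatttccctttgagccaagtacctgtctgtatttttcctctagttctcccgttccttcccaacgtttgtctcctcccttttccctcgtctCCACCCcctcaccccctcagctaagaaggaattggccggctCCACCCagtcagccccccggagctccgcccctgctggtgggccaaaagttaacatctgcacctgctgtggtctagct
The Pou5f1 stretch holds 4 matches, with first bases at -80, -58, -54 and -19 from the start. Cldn3 holds 5, of which those at -211, -206 and -200 follow each other closely, and Grhl3 holds 2, at -118 and -77.

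Of the members, 9 are transcription factors of the pluripotency network, and their log2 fold changes lay between -0.07 and 0.15 at 48 h and between -0.15 and 0.23 at 72 h. Utf1, a chromatin-bound factor of undifferentiated embryonic cells, gave 3.26, 3.35 and 3.22 in control, 3.20, 3.32 and 3.28 at 48 h, and 3.49, 3.59 and 3.41 at 72 h. All 3 arrays at 72 h were above the other 6. The difference was 0.22 ± 0.07 from control (95% interval 0.05 to 0.39, adjusted p = 0.185) and 0.23 ± 0.07 from 48 h (0.06 to 0.40, adjusted p = 0.289), neither past the threshold. Tfcp2l1, a factor of naive pluripotency, gave 3.43, 3.40 and 3.16 in control, 3.40, 3.35 and 3.40 at 48 h, and 3.48, 3.53 and 3.68 at 72 h. Its 72 h arrays too were above the other 6, by 0.23 from control (0.02 to 0.44, adjusted p = 0.249). Groups did not overlap for 0, 3 and 3 of the 40 members at 48 h, at 72 h and from 48 h to 72 h, beside 15.4%, 20.7% and 15.3% of all probe sets, so such separation was not more frequent among the members.

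Nanog, the homeodomain factor at the centre of the network, gave 3.34, 3.38 and 3.17 in control, 3.60, 3.38 and 3.36 at 48 h, and 3.18, 3.65 and 3.42 at 72 h. The groups overlapped, with intervals of -0.15 to 0.45 at 48 h and -0.18 to 0.42 at 72 h. The remaining factors were Zfp42 (Rex1), the nuclear receptors Esrrb, Nr0b1 and Nr5a2, and the zinc finger proteins Sall4 and Prdm14. Their log2 fold changes ran from -0.07 (Nr0b1) to 0.13 (Esrrb) at 48 h and from -0.15 (Nr0b1) to 0.09 (Zfp42) at 72 h. Some members of the network, Nanog among them, have near-identical copies elsewhere in the genome, and whether their probes also read those was not analysed here.

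Another 11 members are targets or effectors of the network: the developmental pluripotency genes Dppa2, Dppa3, Dppa4 and Dppa5a, the ligands Fgf4 and Gdf3, the Nodal co-receptor Tdgf1, the RNA-binding proteins Lin28a and L1td1, the F-box protein Fbxo15 and the AKT cofactor Tcl1. Gdf3, a ligand of the TGF-beta family, gave 4.79, 4.46 and 4.55 in control, 4.94, 4.55 and 4.36 at 48 h, and 4.54, 4.47 and 5.68 at 72 h. Only Dox 72 h 3 was high. The log2 fold change at 72 h was 0.30 (95% interval -0.42 to 1.01, adjusted p = 0.684) with that array and -0.09 (adjusted p = 0.876) without it.

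Lin28a, which blocks the maturation of let-7 miRNAs, gave 4.77, 5.32 and 4.98 in control, 4.85, 4.83 and 4.60 at 48 h, and 4.81, 4.98 and 5.20 at 72 h. Control 2 was the highest array, and the difference at 48 h was -0.26 (95% interval -0.62 to 0.10, adjusted p = 0.669). L1td1 gave 3.30, 3.57 and 3.14 in control, 3.12, 3.08 and 3.27 at 48 h, and 3.71, 3.28 and 3.57 at 72 h. Its 72 h values were all above its 48 h values, by 0.36 (0.04 to 0.69, adjusted p = 0.361), and both overlapped control. The 8 members of this role not given by array had log2 fold changes from -0.14 (Dppa4) to 0.09 (Tcl1) at 48 h and from -0.09 (Fbxo15) to 0.05 (Tcl1) at 72 h.

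On the epithelial side, 3 members direct the program: the transcription factors Grhl2 and Ovol1 and the splicing factor Esrp1, which sets epithelial exon choice. Their log2 fold changes lay between -0.06 and 0.02 at 48 h and between -0.10 and 0.01 at 72 h, and no interval reached past -0.26 or 0.18. Esrp1 stayed between 2.65 and 2.80 on all 9 arrays.

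The 4 members of cell adhesion are Cdh1 (E-cadherin), Cdh3 (P-cadherin), Epcam and Dsp (desmoplakin, which ties keratin filaments to desmosomes). Cdh1, the usual marker of the mesenchymal-to-epithelial step, gave 4.60, 4.66 and 4.60 in control, 4.57, 4.60 and 4.54 at 48 h, and 4.67, 4.63 and 4.60 at 72 h. The groups overlapped, and its intervals, -0.18 to 0.08 at 48 h and -0.12 to 0.14 at 72 h, were among the narrow ones. A second probe set of Cdh1 gave -0.23 after 48 h, with adjusted p = 0.278, and 0.01 after 72 h. Dsp gave 8.53, 8.60 and 8.68 in control, 8.53, 8.54 and 8.54 at 48 h, and 8.61, 8.34 and 8.05 at 72 h. Dox 72 h 3 was lowest, and the difference at 72 h was -0.27 (95% interval -0.56 to 0.02, adjusted p = 0.34), or -0.13 without that array. Epcam and Cdh3 differed by -0.12 and -0.14 at 48 h and by 0.04 and -0.03 at 72 h.

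Tight junctions or apical polarity are built by 7 members: the claudins Cldn3, Cldn4, Cldn6 and Cldn7, occludin (Ocln), the polarity protein Crb3 and Lsr, which recruits proteins to junctions where 3 cells meet. Cldn3 gave 4.68, 4.84 and 4.78 in control, 4.47, 4.86 and 4.47 at 48 h, and 4.63, 4.53 and 4.61 at 72 h. The 72 h arrays were all below control, by -0.18 on the log2 scale (95% interval -0.44 to 0.08, adjusted p = 0.47). Crb3 gave 4.65, 4.60 and 4.65 in control, 4.74, 4.65 and 4.78 at 48 h, and 4.37, 4.65 and 4.18 at 72 h. It had the lowest estimate between the time points, -0.32 (-0.58 to -0.06, adjusted p = 0.321), and this was -0.21 without Dox 72 h 3. Lsr gave 5.70, 5.51 and 5.32 in control, 5.65, 5.51 and 5.17 at 48 h, and 5.77, 5.27 and 5.66 at 72 h, with full overlap. Cldn4, Cldn6, Cldn7 and Ocln differed from control by 0.05, 0.04, 0.00 and 0.12 at 48 h and by 0.14, -0.03, -0.15 and 0.05 at 72 h.

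The keratins Krt8 and Krt18 form the paired filaments of simple epithelia, and Krt19 joins them in ducts and glands. Krt18 gave 5.61, 5.29 and 5.72 in control, 5.03, 4.87 and 5.32 at 48 h, and 5.12, 5.56 and 5.96 at 72 h. Its 48 h values were low but overlapped control in 1 array, Dox 48 h 3. Its estimates were the lowest of the 40 at 48 h, -0.46 (95% interval -0.97 to 0.04, adjusted p = 0.547), and the highest between the time points, 0.47 (-0.03 to 0.98, adjusted p = 0.431). Its second probe set differed by -0.14 and 0.39 in the same comparisons. Krt8 gave 5.14, 5.10 and 5.10 in control, 5.10, 5.14 and 5.10 at 48 h, and 5.10, 5.42 and 4.81 at 72 h. The 72 h arrays spread to both sides of a nearly fixed value, and the estimates were 0.00 at 48 h and -0.01 at 72 h. Krt19 differed by -0.06 and -0.03.

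Of the 9 arrays, Dox 72 h 3 stood apart. It was the highest or the lowest array for 15 of the 40 members (37.5%), and for 40% of all probe sets. Each of the other 8 arrays was so for 6 to 10 members. Several lists of markers of other spleen cells were highest on it. The mean of 4 megakaryocyte and platelet genes was 7.17 on Dox 72 h 3 and 5.76 on control 3. It was 4.67 to 5.31 on the other 7 arrays. The 7 B and plasma cell genes measured ran from 5.19 to 5.89 in control, 5.57 to 5.80 at 48 h and 5.84 to 6.84 at 72 h. For 7 T and NK cell genes these ranges were 3.40 to 3.96, 3.44 to 3.52 and 3.46 to 4.44, and for 5 erythroid genes 4.62 to 5.30, 4.63 to 4.75 and 4.80 to 5.72. The mean of 9 dendritic cell genes was 5.08 to 5.38 in control, 5.30 to 5.43 at 48 h and 5.64 to 6.18 at 72 h. Of the B and plasma cell genes, Sdc1 (0.64, adjusted p = 0.0074) and Cd79b (0.68, adjusted p = 0.0329) rose past the threshold at 72 h. Of the dendritic cell genes, H2-Aa did so (2.27, adjusted p = 0.0475). For Sdc1, Cd79b and H2-Aa all 3 arrays at 72 h were above control. The B and plasma cell genes Cd79a, Ms4a1, Pax5 and Jchain were highest on Dox 72 h 3 (5.98, 4.99, 4.21 and 8.72). Their 72 h arrays overlapped control, and Xbp1 differed by -0.07 at 72 h. The other dendritic cell genes did not pass at 72 h. H2-Ab1, Ccr7, Cd209a and Itgax differed from control by 1.08, 0.68, 0.61 and 0.55. Flt3, Zbtb46, Xcr1 and Batf3 differed by 0.03, 0.07, 0.09 and 0. No gene of these 2 lists fell past the threshold at 72 h, where 2.49% of all probe sets passed. Markers of fibroblasts and stromal cells stayed between 3.62 and 3.76 (7 genes), and those of endothelial cells between 4.20 and 4.49 (7 genes). Red pulp macrophage markers (8 genes) had means of 5.68 to 6.43 in control, 5.90 to 6.15 at 48 h and 5.39 to 6.43 at 72 h, lowest on Dox 72 h 1 and 2 and as high on Dox 72 h 3 as on control 3. The 10 genes of leukemia identity were above the median of all probe sets, and the mean over them lay between 9.25 and 9.50 on every array, but single genes moved in both directions. At 48 h, Kit (-1.36, adjusted p = 0.00261) and Mpo (-1.22, adjusted p = 0.0294) fell, and Csf1r (1.02, adjusted p = 0.00279) and Ptprc (0.52, adjusted p = 0.0369) rose on the log2 scale, and at 72 h Csf1r passed again (1.0, adjusted p = 0.0046). The part of other cells in the values of Gdf3, Dsp, Crb3 and Krt18 at 72 h was not tested. With both arrays (control 3 and Dox 72 h 3) left out, 0 of 40 members passed the threshold in all 3 comparisons.

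**Figure D3:**
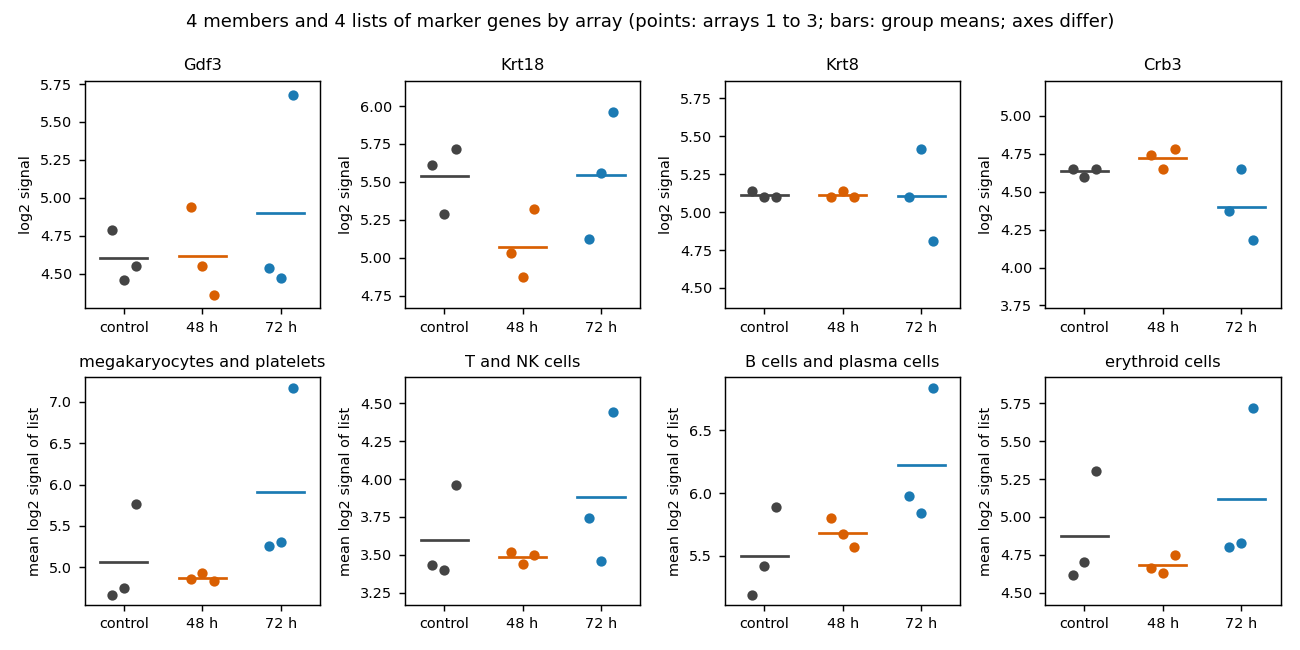
Top row: log2 signal (y axis) of Gdf3, Krt18, Krt8 and Crb3 on the 9 arrays by group; bottom row: mean log2 signal of 4 lists of marker genes of other blood cells on the same arrays (points in the order of arrays 1 to 3, bars for group means, a separate y axis in each panel). Dox 72 h 3 holds the highest value of Gdf3 (5.68) and Krt18 (5.96), the lowest of Krt8 (4.81) and Crb3 (4.18), and the highest of all 4 marker lists.

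Related genes outside the members were read from 3 lists: 32 other pluripotency genes, 34 other epithelial genes and 26 mesenchymal genes. The lists were chosen with earlier results of these data known. Their counts and shares below therefore cannot be read as an excess over all probe sets. Of the 29 other pluripotency genes measured, 2 rose and 1 fell at 48 h, 1 rose and 1 fell at 72 h, and 2 were lower at 72 h than at 48 h. Klf4, a factor of the cassette, is counted in all 3 comparisons and was the only gene of this list that rose at 72 h. The median log2 fold changes of the 29 genes were -0.02, -0.05 and -0.05. Of 32 other epithelial genes, 1 rose at 48 h, 0 passed at 72 h, and 1 was lower at 72 h than at 48 h, with medians of 0.00, -0.03 and -0.05. Of 25 mesenchymal genes, 1 rose at 48 h, 1 rose and 1 fell at 72 h, and 2 were lower at 72 h than at 48 h, with medians of -0.02, 0.04 and 0.02. Over all probe sets 1.6%, 2.49% and 0.215% passed in these comparisons. Unadjusted p-values under 0.05 were found for 7, 7 and 6 of the 29 pluripotency genes (24.1%, 24.1% and 20.7%), for 4, 2 and 8 of the 32 epithelial genes (12.5%, 6.25% and 25%) and for 5, 6 and 6 of the 25 mesenchymal genes (20%, 24% and 24%), beside 10.2%, 16.8% and 12.3% of all probe sets.

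The pluripotency genes past the threshold were Klf4, given above, Klf5 and Jam2. Klf5, a Krüppel-like factor that embryonic stem cells share with Klf2 and Klf4, gave 7.11, 7.17 and 7.25 in control, 6.33, 6.57 and 6.64 at 48 h, and 6.33, 6.36 and 6.42 at 72 h. All 6 Dox arrays were below control. It fell by 0.66 on the log2 scale after 48 h, with adjusted p = 0.0116, and by 0.81 after 72 h, with adjusted p = 0.00613. The call at 48 h ended without control 2 (adjusted p = 0.0512). Jam2, a junctional adhesion molecule, gave 4.31, 4.11 and 4.15 in control, 5.70, 5.66 and 5.37 at 48 h, and 4.47, 4.35 and 4.49 at 72 h. It was high at 48 h and just above control at 72 h, with log2 fold changes of 1.38 (95% interval 1.14 to 1.62, adjusted p = 0.000775) and 0.24 (0.00 to 0.49, adjusted p = 0.288).

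Grhl3 was the one epithelial gene of either list past the threshold. It encodes a grainyhead-like factor of the skin barrier, of the same family as the member Grhl2. It gave 3.79, 3.99 and 4.0 in control, 6.04, 6.37 and 6.65 at 48 h, and 4.84, 4.89 and 4.28 at 72 h. The 3 groups did not overlap, with 72 h between the other groups. The log2 fold change was 2.43 (95% interval 1.98 to 2.88, 5.37-fold, adjusted p = 0.00107) at 48 h and 0.74 (0.29 to 1.19, adjusted p = 0.101) at 72 h. Grhl2 on the same arrays gave 3.36 to 3.52 in control, 3.36 to 3.40 at 48 h and 3.31 to 3.36 at 72 h.

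The mesenchymal genes past the threshold were S100a4, Fn1 and Tgfbr2. S100a4, a calcium-binding protein that myeloid cells also make, gave 6.14, 6.11 and 5.99 in control, 7.27, 7.29 and 7.66 at 48 h, and 6.83, 6.80 and 6.88 at 72 h. The rise was 1.32 after 48 h, with adjusted p = 0.00119, and 0.76 after 72 h, with adjusted p = 0.0149. The latter call ended if control 1, control 2 or Dox 72 h 3 was left out, at adjusted p-values up to 0.0581. Fn1 (fibronectin) gave 9.41, 9.05 and 9.54 in control, 9.87, 10.54 and 10.63 at 48 h, and 7.86, 7.81 and 7.52 at 72 h. Its log2 fold change was 1.02 after 48 h, with adjusted p = 0.0746, and -1.60 after 72 h, with adjusted p = 0.0122 (0.0609 without control 1). Tgfbr2, a receptor of TGF-beta, gave 6.33, 6.49 and 6.42 in control, 6.69, 6.86 and 6.79 at 48 h, and 6.27, 6.11 and 6.17 at 72 h. It differed from control by 0.37 (adjusted p = 0.0722) and -0.23 (adjusted p = 0.182). From 48 h to 72 h it differed by -0.60 (adjusted p = 0.032), a call that was lost in each of the 9 fits with 1 array left out.

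**Figure D4:**
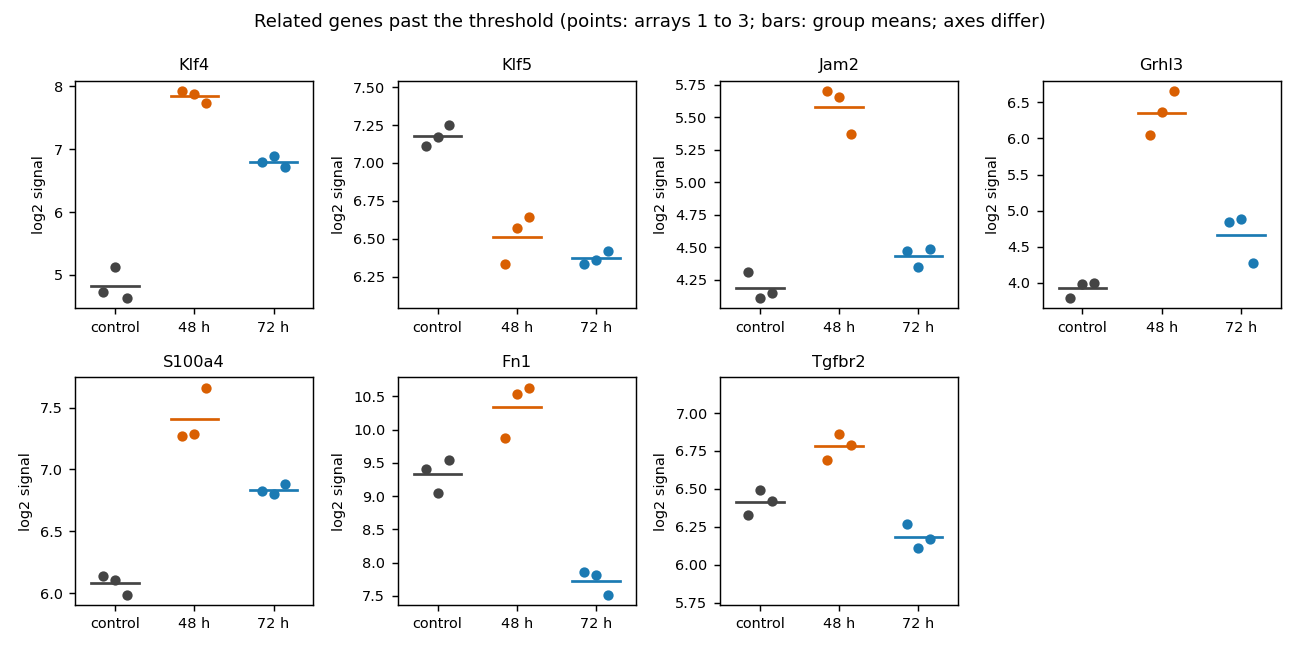
Log2 signal (y axis, a separate scale in each panel) of the 7 related genes past the threshold, on 3 arrays each of control, 48 h and 72 h of Dox (points in the order of arrays 1 to 3, bars for group means). Jam2 and Grhl3 peak at 48 h, Klf4 is highest at 48 h and stays above control at 72 h, and Fn1 at 72 h (7.52 to 7.86) lies below all control arrays (9.05 to 9.54).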

How the data were processed

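Total RNA of sorted leukemia cells was measured on 9 Mouse Gene 2.0 ST arrays, 3 per group. The deposited values are log2 signals per probe set, which the authors normalized between arrays. The study's methods name the oligo package and RMA, whereas the submitters' processing notes name MAS5; the form of the values is that of RMA. Array medians ran from 3.71 to 3.87, and no 2 arrays held identical values. Probe sets were named through the platform annotation, and all 40 members matched RefSeq (GRCm38.p6). Groups were compared with limma 3.58.1 in R 4.3.3: 1 mean per group over 9 arrays, eBayes, two-sided p-values and a moderated F test. P-values were adjusted by Benjamini-Hochberg over 41345 probe sets, with a threshold of 0.05; intervals are 95% moderated intervals. The number of arrays limits the precision. The procedure was tested on simulated data.

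Genes named by array were the 4 factors, members whose groups did not overlap, and the 6 members with the largest differences in each comparison. The same holds for the 8 members with the highest mean and the list genes past the threshold. Values of Cdh1, ranges of Grhl2 and Esrp1, and the marker genes past the threshold were added after their values were seen. Members and lists were chosen with earlier results of these data known. Alternatives were another quantile normalization, median centring, leaving out dim probe sets, a variance trend, robust eBayes, only the 2 groups compared, the replicate number as a block, the mean of a gene's probe sets, and each array left out in turn. Leaving out control 3 and Dox 72 h 3 together was chosen after seeing the data.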

Additional observations from a re-analysis of the deposited data

Results flagged for a closer look

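No member differed between its 48 h and 72 h effect past the threshold, and 5 related genes did, by limma's test of 72 h against 48 h, which is the difference of the 2 effects since both share the controls. The log2 fold changes from 48 h to 72 h were -1.05 for Klf4 (adjusted p = 0.028), -1.14 for Jam2 (adjusted p = 0.0111), -1.68 for Grhl3 (adjusted p = 0.0242), -2.62 for Fn1 (adjusted p = 0.00649) and -0.60 for Tgfbr2 (adjusted p = 0.032). In all 5, each of the 3 arrays at 72 h was below each of the 3 at 48 h. Groups were separate for 15.3% of all probe sets in either direction. The 5 genes were picked by this same comparison, so their separation adds no support. Leaving out 1 array at a time, the call of Fn1 held in 9 of 9 fits (adjusted p up to 0.0484). Jam2 held in 6 of 9, failing without Dox 48 h 2, Dox 72 h 1 or Dox 72 h 3 (up to 0.0602). Klf4 held in 2 of 9, without control 2 or control 3 (otherwise up to 0.135). Grhl3 held in 1 of 9, without Dox 48 h 1 (otherwise up to 0.113), and Tgfbr2 in 0 of 9 (up to 0.152).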

How the results depend on the processing

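The count of members past the threshold was 0 in every comparison and the F test under every alternative run. The number of arrays and the dim signal of most members limit what could be seen. Probe sets past the threshold (662 for 48 h, 1028 for 72 h, and 89 for 72 h against 48 h) became 389, 370 and 19 with only the 2 groups compared and 421, 299 and 10 without control 3 and Dox 72 h 3. They became 177 between the time points with dim probe sets left out, which tests fewer of them. Beyond single arrays left out, counts ran from 327 to 829 at 48 h and 258 to 1515 at 72 h. Some alternatives thus gave more calls. Each array left out in turn gave 289 to 716, 269 to 851 and 14 to 63. With the replicate block the counts were 327, 258 and 11. Same-numbered arrays correlated by -0.302 to 0.209, and 4 of 9 arrays correlated best with their own number. With 3 arrays per group these values cannot decide whether same-numbered arrays share more than a number, which was not tested. Under the block Fn1 and S100a4 at 72 h (adjusted p = 0.0572 and 0.059) and the calls between the time points of Klf4 (0.0615), Jam2 (0.0508), Grhl3 (0.108), Fn1 (0.0508) and Tgfbr2 (0.144) were lost. Without control 3 and Dox 72 h 3, Klf5 (0.0689 at 48 h and 0.0523 at 72 h), Fn1 and S100a4 at 72 h (0.0966 and 0.114) and the calls from 48 h to 72 h (0.0883 to 0.177 in the 5 genes) were lost. With only the 2 groups compared, Klf5 at 48 h (0.0535) and, from 48 h to 72 h, Jam2, Grhl3, Fn1 and Tgfbr2 (0.0511 to 0.126) were lost. At 72 h, 479 probe sets were higher and 549 lower (46.6% higher), and with median centring 633 and 398 (61.4% higher). Member medians were 0.02, 0.08 and 0.07 with median centring, 0.05 at 72 h and 0.05 between the time points with quantile normalization, and -0.07 at 48 h and 0.06 between the time points over the 13 members left without dim probe sets; 1 array left out gave -0.06 to 0, -0.03 to 0.01 and -0.01 to 0.05. The cause was not tested. Signs of some members turned, none of them past the threshold. With quantile normalization: Utf1 0.02 and Krt8 0.02 at 48 h, Lin28a 0.06 and Krt8 0.08 at 72 h, and Cldn3 0.06, Nanog 0.01 and Krt8 0.07 between the time points. With median centring: Utf1 0.03 and Krt8 0.04 at 48 h, Myc 0.02, Lin28a 0.07 and Krt8 0.08 at 72 h, and Cldn3 0.04, Nanog 0.03 and Krt8 0.05 between the time points. With the mean of its probe sets, Lsr was -0.03 at 72 h. Without control 3 and Dox 72 h 3: Sox2 -0.02, Gdf3 -0.01 and Tfcp2l1 -0.03 at 48 h, Sox2 0, Myc 0.04, Krt18 -0.11, Gdf3 -0.12, Lsr -0.09 and Krt8 0.14 at 72 h, then Gdf3 -0.11 and Krt8 0.14 from 48 h to 72 h. With 1 array left out, ranges crossed 0 at 48 h for Sox2 (-0.02 to 0.07), Gdf3 (-0.14 to 0.15), Tfcp2l1 (-0.03 to 0.11), Utf1 (-0.04 to 0.03), Lsr (-0.17 to 0.07) and Krt8 (-0.01 to 0.01). The same held at 72 h for Myc (-0.16 to 0.05), Krt18 (-0.20 to 0.22), Lin28a (-0.15 to 0.12), Gdf3 (-0.09 to 0.51), Lsr (-0.04 to 0.21) and Krt8 (-0.16 to 0.14). From 48 h to 72 h it held for Sox2 (-0.01 to 0.05), Cldn3 (-0.08 to 0.12), Nanog (-0.15 to 0.09), Gdf3 (-0.11 to 0.49), Lsr (-0.01 to 0.27) and Krt8 (-0.16 to 0.14).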
